A study of Mus musculus with 8 samples.

Results

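The genes described here encode 10 transcription factors and cofactors of red cell precursors: Gata1, Tal1, Lmo2, Ldb1, Zfpm1, Gfi1b, Nfe2, Lyl1, Cbfa2t3 and Hemgn. Every probe set annotated to them by a current or older symbol was taken, which gave 14 of the 22690 probe sets on the array. Of these, 9 probe sets for 8 genes were bright enough to be tested. Of the 9, 6 were called higher in the erythroid captures than in the epithelial captures, against 6.19% of all probe sets tested. Those 6 read Gata1, Tal1, Lmo2, Hemgn, Zfpm1 and Gfi1b, with folds between 2.17 and 4.36, and no tested probe set was called lower. With each pair left out in turn, the call was lost for Zfpm1 in 2 of 4 fits and for Gfi1b in 3. Lyl1 and Cbfa2t3 did not pass the test, and Ldb1 and Nfe2 were too dim to be tested.

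The study captured 2 kinds of cell with a laser from frozen, stained sections of FVB/N mouse yolk sacs at embryonic day 9.5. The erythroid group is the primitive erythroid precursors made in the yolk sac, and the epithelial group is the non-erythroid control. The labels name no mutant allele, agent or treatment in either group. There were 4 samples in each group, in 4 pairs, and both samples of a pair came from the same slides, with the epithelial cells taken after the erythroid cells. Each replicate pooled 2 to 4 yolk sacs from 2 litters, so the spread below is between pools and not between single embryos. An erythroid cell took 2 to 3 pulses of the laser and an epithelial cell 1, and 10 to 39 ng of total RNA was amplified by a 2-cycle protocol primed at the 3' end before hybridisation. A captured area can hold neighbouring cells, and fewer cells of a type and less RNA per cell cannot be told apart in such samples.

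GATA1, a zinc finger protein, binds GATA motifs, and TAL1, a basic helix-loop-helix protein, binds E-boxes together with a widely expressed E protein. LMO2 bridges the pair without touching DNA, and LDB1 holds LMO2 and can pair with itself, which brings distant enhancers to promoters. In red cell precursors this assembly turns on genes for globin, haem synthesis and the membrane skeleton. The cofactors ZFPM1 (also called FOG1), CBFA2T3 (also called ETO2) and GFI1B take part in repressing genes of earlier progenitors and other lineages.

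GATA1 is known to act on several of these genes, so the bases before their annotated starts were read for its motif and for that of TAL1. RefSeq (GRCm38.p6) gave 12 start sites for 8 of the 10 genes, and no entry was found in that table for Lmo2 and Nfe2. A GATA motif, which is GATA with A or T just before it and A or G just after it, on either strand, stood in the 250 bases before 5 of the 12 starts, against 26.5% of the 32851 mouse promoters in the table. An E-box (CANNTG, the same on both strands) stood before 7 of the 12, against 66.2%, and a CACCC box (CACCC, either strand), the core of sites for KLF1 and related factors, before 10 of the 12, against 52.0%. An E-box and the letters GATA in the same orientation, spaced by 7 to 12 bases, is the arrangement known to be bound by the TAL1 and GATA1 assembly. It stood before 2 of the 12 starts, those of Hemgn and of 1 of the Cbfa2t3 transcripts, against 2.7% of all promoters. In both, the arrangement overlaps a match to the GATA motif. These counts are matches of letters and say nothing of binding. Some genes have more than 1 start, so the 12 windows are not 12 separate genes. For the starts of Gata1, Ldb1, Zfpm1, Lyl1 and Cbfa2t3 and the second start of Tal1, the RefSeq span of the gene begins before the start. The windows of 3 genes that were higher in the erythroid captures are shown because each lies outside the RefSeq span of its own gene and holds a GATA motif, with GATA and E-box matches in capitals.
Tal1, first start, chr4:115056176-115056425, plus strand: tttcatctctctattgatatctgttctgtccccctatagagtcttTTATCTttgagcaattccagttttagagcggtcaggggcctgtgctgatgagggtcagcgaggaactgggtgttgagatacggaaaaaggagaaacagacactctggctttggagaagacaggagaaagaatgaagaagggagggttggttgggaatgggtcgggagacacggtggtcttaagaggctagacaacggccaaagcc
Gfi1b, chr2:28621983-28622232, minus strand: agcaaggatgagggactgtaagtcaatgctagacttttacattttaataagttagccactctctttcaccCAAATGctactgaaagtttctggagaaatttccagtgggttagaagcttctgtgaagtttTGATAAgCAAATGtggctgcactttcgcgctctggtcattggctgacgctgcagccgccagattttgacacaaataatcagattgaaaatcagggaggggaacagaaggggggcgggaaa
Hemgn, chr4:46404184-46404433, minus strand: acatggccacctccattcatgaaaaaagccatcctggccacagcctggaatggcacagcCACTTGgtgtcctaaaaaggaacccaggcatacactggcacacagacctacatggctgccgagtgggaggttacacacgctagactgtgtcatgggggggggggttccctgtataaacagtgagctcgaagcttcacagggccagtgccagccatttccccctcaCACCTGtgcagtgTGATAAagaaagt
The Tal1 match, read on the opposite strand, lies 205 to 200 bases before the start. The Gfi1b match lies 120 to 115 bases before the start, next to an E-box at 113 to 108. The Hemgn match lies 13 to 8 bases before the start and follows an E-box at 26 to 21.

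**Figure D1:**
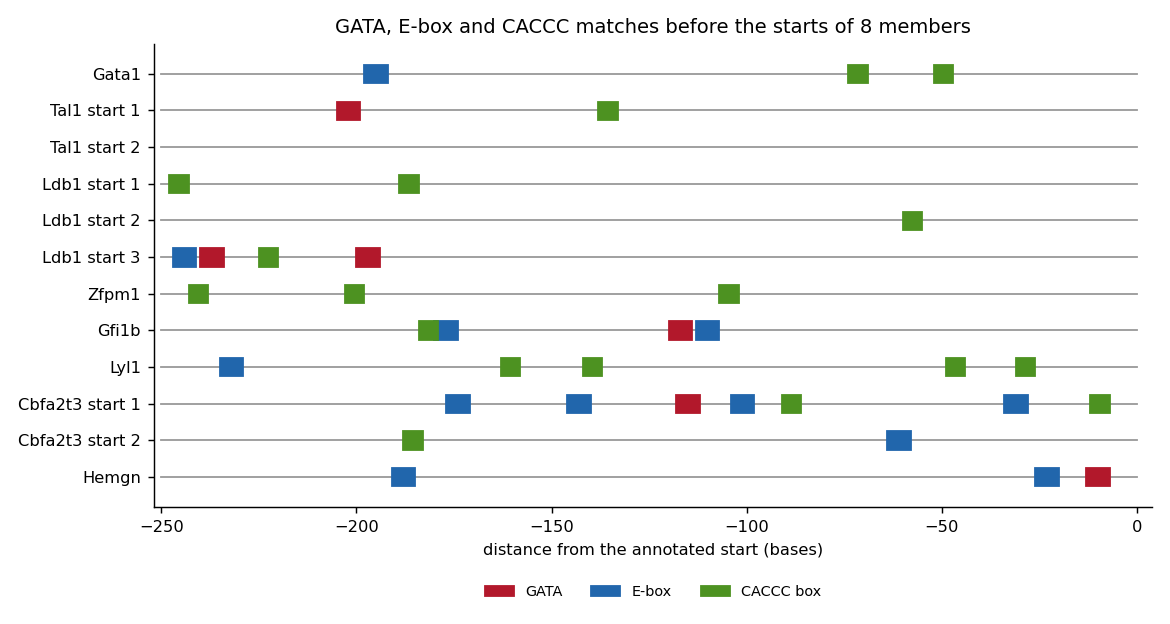
The map gives matches to the GATA motif (red), the E-box (blue) and the CACCC box (green) by their distance in bases from each of the 12 annotated starts of 8 genes, on either strand. GATA matches stand before 5 starts, and the Hemgn match is the one closest to its start, at 13 to 8 bases.

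The deposited signal of an array had a median between 81.5 and 127, and between 48.7% and 57.7% of probe sets lay above a background level set from genes not expected in these cells, which was 55.1 to 133. The arrays fell into 2 sets by the array maker's control probe sets for the 3' and 5' ends of 2 transcripts, whose signals were divided to give a ratio, a measure of how far the amplified RNA had been shortened. In pairs 1 and 2 the Gapdh ratio was 38.7 to 44.4 and the Actb ratio 46.5 to 131. In pairs 3 and 4 they were 7.0 to 17.4 and 7.75 to 13.5. Both cell types of a pair lay in the same set, so the changes are also given within each set. The test took only probe sets at or above the array median on 4 or more of the 8 arrays. Gata1, Tal1, Lmo2, Lyl1, Hemgn and the brighter Zfpm1 probe set did so on all 8, Gfi1b on 6 and the tested Cbfa2t3 probe sets on 4. Of 12 erythroid markers, 10 were tested and 8 were higher in the erythroid captures, and of 12 markers of the visceral endoderm, the epithelium that lines the yolk sac, all were tested and 10 were lower. Across all 11449 probe sets tested with limma at an adjusted p under 0.05, 709 were called higher in the erythroid captures and 881 lower, and with each array centred on its median these counts were 455 and 1097.

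Gata1 and Tal1, the DNA-binding factors at the head of the assembly, were both higher in the erythroid captures, by about the same fold. Across pairs 1 to 4, Gata1 (probe set 1449232_at) gave signals of 709, 711, 1505 and 2028 in the erythroid captures and of 262, 317, 153 and 359 in the epithelial captures. The groups did not overlap, and the erythroid captures of pairs 3 and 4 were the highest. The mean was 1238 ± 646 (SD, n = 4) against 273 ± 89.4 (SD, n = 4). On the normalised log2 scale the change was 2.05 ± 0.32 (SE of the limma fit), a fold of 4.14, with an adjusted p of 0.00329. The pairs gave differences of 1.25, 1.30, 3.17 and 2.48, all in 1 direction, and the change ranked 45 of all probe sets tested.

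Tal1 (1449389_at) gave 1086, 1195, 3131 and 1842 in the erythroid captures and 486, 465, 200.5 and 420.3 in the epithelial captures. These groups did not overlap either, and the erythroid capture of pair 3 was the highest while the epithelial capture of the same pair was the lowest. Its mean was 1814 ± 939 (SD, n = 4) against 393 ± 131 (SD, n = 4), and the log2 change was 2.12 ± 0.39 (SE), a fold of 4.36, with a limma adjusted p of 0.00618. The differences by pair were 1.04, 1.41, 3.91 and 2.14.

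Lyl1, the closest relative of Tal1 and another helix-loop-helix partner of the E proteins, did not pass the test. Its probe set (1419120_at) gave 251, 355, 727 and 1142 in the erythroid captures and 259.9, 291, 177 and 142 in the epithelial captures. The groups overlapped: the erythroid capture of pair 1 lay below 2 of the epithelial captures, and the erythroid captures of pairs 3 and 4 stood well above all others. The log2 change was 1.19 ± 0.41 (SE), with a limma adjusted p of 0.0792, and 3 of 4 pairs were higher. Single pairs moved it: it was 1.67 (adjusted p = 0.0189) without pair 1, 0.96 (0.255) without pair 3 and 0.71 (0.358) without pair 4.

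**Figure D2:**
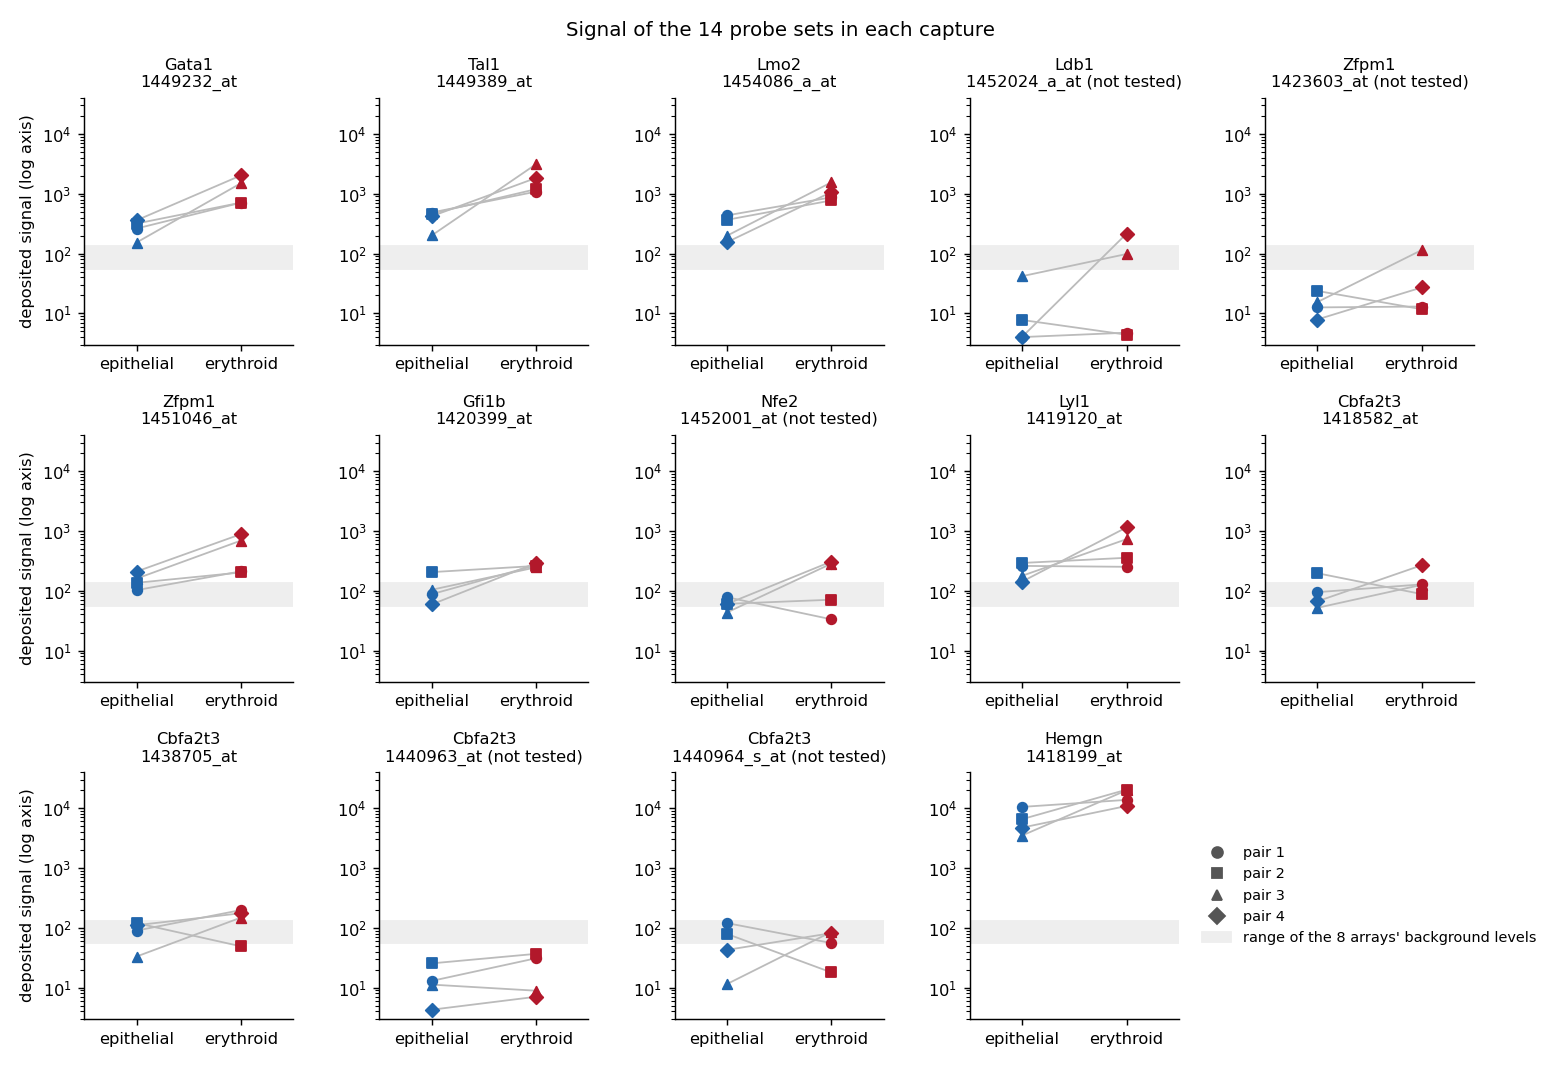
Deposited signal (log axis) of the 14 probe sets in the 4 epithelial (blue) and 4 erythroid (red) captures, with a line joining the samples of a pair and a grey band from 55.1 to 133 for the background levels of the 8 arrays. Gata1, Tal1, Lmo2, Gfi1b and Hemgn separate the captures without overlap, while the Ldb1, Nfe2 and dim Cbfa2t3 probe sets lie mostly in or below the band.

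The bridging proteins differed in how well they could be measured. Lmo2 (1454086_a_at), the LIM-only adaptor, gave 871, 773, 1551 and 1066 in the erythroid captures and 434, 366, 198 and 154 in the epithelial captures. All erythroid captures lay above all epithelial captures, and the epithelial signals of pairs 3 and 4 were below those of pairs 1 and 2. The mean was 1065 ± 346 (SD, n = 4) against 288 ± 133 (SD, n = 4). The log2 change was 1.85 ± 0.33 (SE), a fold of 3.61, with a limma adjusted p of 0.00519 and differences by pair of 0.87, 1.20, 2.89 and 2.46.

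Ldb1 (1452024_a_at), the self-associating partner of LMO2, gave 4.75, 4.40, 98.3 and 215 in the erythroid captures and 4.01, 7.76, 41.8 and 4.03 in the epithelial captures. It rose above the background level on 1 erythroid array and on no epithelial array, so this probe set gives no level for Ldb1 in either group and could not be tested. The mean of its 4 pair differences was 1.09 with an SD of 1.84, and a two-sided exact sign-flip test over the pairs gave p = 0.375, where 0.125 is the smallest value that 4 pairs allow. In a fit without the filter on dim probe sets, its adjusted p was 0.435.

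Zfpm1, whose protein joins GATA1 as a cofactor, was higher in the erythroid captures by 1 of its 2 probe sets. The brighter one (1451046_at) gave 210.5, 202, 690 and 883 in the erythroid captures and 102, 135, 159 and 209 in the epithelial captures. The groups overlapped by a narrow margin, since the epithelial capture of pair 4 lay above the erythroid capture of pair 2, but the erythroid capture was the higher one in 4 of 4 pairs. The mean was 496 ± 344 (SD, n = 4) against 151 ± 44.9 (SD, n = 4), and the log2 change was 1.37 ± 0.29 (SE), a fold of 2.58, with a limma adjusted p of 0.0118. Without pair 3 the change was 1.17 (adjusted p = 0.0612) and without pair 4 it was 1.21 (0.104), so it kept its direction and missed the threshold. The adjusted p was 0.139 without the pair term. The other probe set (1423603_at) was above background on 1 erythroid array only, was not tested, and was higher in 2 of 4 pairs with a mean difference of 0.54.

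Cbfa2t3, a corepressor held in the assembly through the E protein, had 4 probe sets, of which 2 were tested and none was called. The tested probe set with the higher mean (1418582_at) gave 127, 87.9, 125 and 266 in the erythroid captures and 94.4, 196, 51.6 and 66.2 in the epithelial captures. Pair 2 was reversed relative to the other pairs, and the groups overlapped. Its mean was 152 ± 78.5 (SD, n = 4) against 102 ± 65.3 (SD, n = 4), with a log2 change of 0.33 ± 0.45 (SE) and a limma adjusted p of 0.674. The second tested probe set (1438705_at) gave a change of 0.44 ± 0.49 (SE) with an adjusted p of 0.601, and it too was lower in the erythroid capture of pair 2. The probe sets 1440963_at and 1440964_s_at were above background on 0 and 1 of the 8 arrays, and their pair differences averaged 0.24 and -0.16. The 2 tested probe sets were each above background on 3 of 4 erythroid arrays, and on 3 and 2 of the 4 epithelial arrays. Their highest signals were 266 and 198, while the other 2 probe sets lay mostly below background.

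Gfi1b, a zinc finger repressor that recruits the CoREST complex and is itself bound by GATA1, was higher in the erythroid captures. Its probe set (1420399_at) gave 267, 259, 246 and 290.3 in the erythroid captures and 87.3, 204, 104 and 58.9 in the epithelial captures. The erythroid signals lay close together and above every epithelial signal, and the epithelial capture of pair 2 was the highest of its group. The mean was 266 ± 18.5 (SD, n = 4) against 114 ± 63.3 (SD, n = 4), and the log2 change was 1.12 ± 0.31 (SE), a fold of 2.17, with a limma adjusted p of 0.0366. In pairs 1, 3 and 4 the epithelial signal was close to the background level of its array (88.0, 90.5 and 55.1) and in pair 1 below it, so the fold rests on epithelial signals near background. The adjusted p was 0.0996, 0.0744 and 0.183 without pair 1, 3 or 4, and 0.0425 without pair 2. It was 0.0796 without the pair term and 0.0887 without the filter.

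Nfe2, the large subunit that pairs with small MAF proteins at globin control regions, was too dim to test. Its probe set (1452001_at) gave 33.2, 70.7, 283 and 307 in the erythroid captures and 77.9, 60.3, 43.2 and 59.9 in the epithelial captures. It was above background in the erythroid captures of pairs 3 and 4 and in 1 epithelial capture. The pair differences were -1.30, 0.40, 2.18 and 1.64, with a mean of 0.73 and an SD of 1.55, and the exact sign-flip test gave p = 0.375. Without the filter the limma adjusted p was 0.578.

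Hemgn, a nuclear protein of blood precursors whose gene is a known target of GATA1, was bright in both captures. Its probe set (1418199_at) gave 13790, 20414, 19925 and 10881 in the erythroid captures and 10509, 6549, 3486 and 4734 in the epithelial captures. The groups did not overlap, although the highest epithelial capture, of pair 1, came close to the lowest erythroid capture, of pair 4. The mean was 16252 ± 4681 (SD, n = 4) against 6319 ± 3063 (SD, n = 4). The log2 change was 1.40 ± 0.23 (SE), a fold of 2.64, with a limma adjusted p of 0.00355 and differences by pair of 0.43, 1.31, 2.27 and 1.59.

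**Figure D3:**
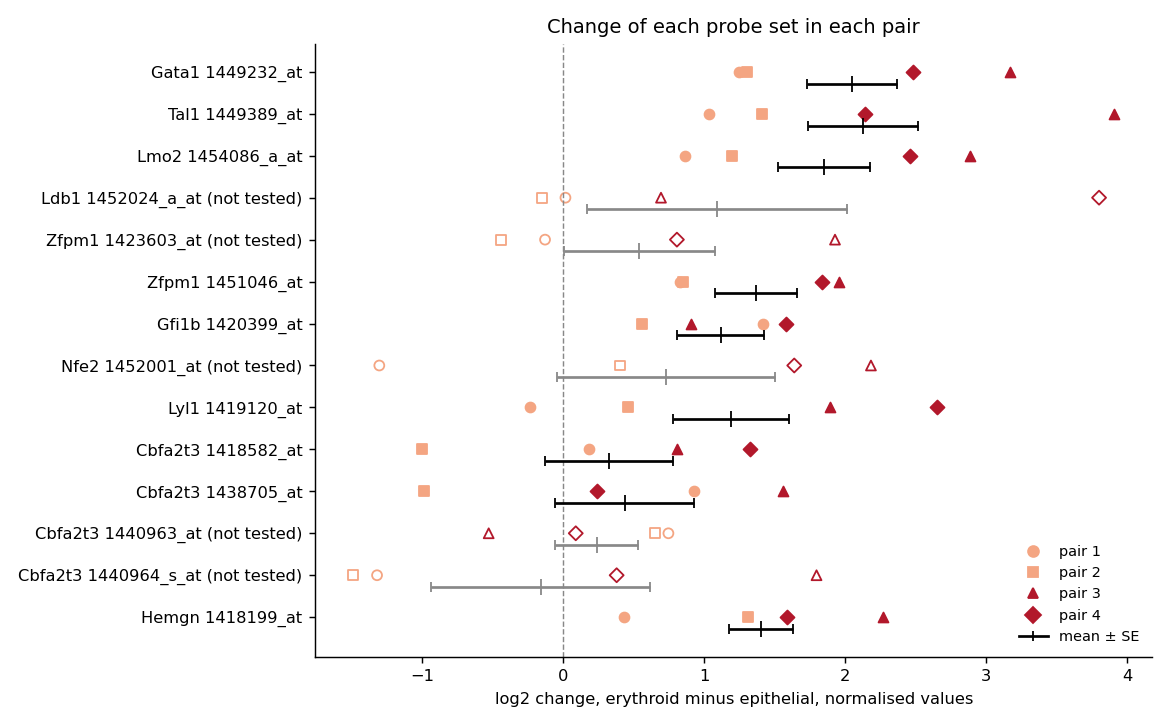
Log2 change, erythroid minus epithelial, of each of the 14 probe sets in pairs 1 and 2 (light) and pairs 3 and 4 (dark), on normalised values, with open symbols for probe sets that were not tested. The bars below the points give the mean with the SE of the limma fit (black) or, where no test was made, the SE over 4 pairs (grey). Gata1, Tal1, Lmo2, Zfpm1, Gfi1b and Hemgn lie above 0 in all 4 pairs.

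Counted together, 6 of the 9 tested probe sets were called higher, where 6.19% of all probe sets tested were called higher and 13.9% were called in either direction. All erythroid captures lay above all epithelial captures for 5 of the 9, against 6.00% of all tested, and 6 of the 9 were higher in 4 of 4 pairs, against 18.5%. Without the filter, 5 of the 14 probe sets were called higher, against 2.48% of 22626 probe sets, and Gfi1b was the one lost. Without a variance trend in limma 2 were called, Gata1 (adjusted p = 0.0436) and Zfpm1 (0.0487), while Lmo2, Gfi1b, Tal1 and Hemgn lay between 0.0513 and 0.0596. The median change over the 8 tested genes was 1.38, against -0.01 over all 7191 genes tested. These genes are known for their part in red cell precursors, so a shift of this kind says only how they read in these captures.

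The changes are given here within the 2 sets of pairs. The median over the 8 genes was 0.93 in the first set, pairs 1 and 2, and 2.10 in the second, pairs 3 and 4, and each of the 9 tested probe sets had the larger change in pairs 3 and 4. That pattern is not particular to them: among all 709 probe sets called higher, 84.6% changed more in pairs 3 and 4, with medians of 0.77 and 1.35, against 50.4% of all probe sets tested. Gata1 changed by 1.28 in the first set and by 2.82 in the second, Tal1 by 1.22 and 3.02, and Lmo2 by 1.03 and 2.67. Hemgn changed by 0.87 and 1.93 and Zfpm1 by 0.84 and 1.89. Gfi1b gave 0.99 and 1.25, the nearest to equal among the called genes.

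The difference between the sets was tested as an interaction in limma, with 2 residual degrees of freedom. It was called for 1 of the 9 probe sets, that of Lyl1, against 1.84% of all probe sets tested. Lyl1 changed by 0.11 in the first set and by 2.27 in the second, a difference of 2.16 ± 0.49 (SE) with an adjusted p of 0.0291. That p ranged from 0.00743 to 0.372 over the alternative settings and missed the threshold without the filter (0.0661) and without a variance trend (0.372). For Lmo2, Hemgn, Tal1 and Gata1 the adjusted p of the difference was 0.0533, 0.0615, 0.0673 and 0.0729. Over the alternatives it ran from 0.0209 to 0.372 for Lmo2, from 0.0389 to 0.451 for Tal1, from 0.0398 to 0.74 for Hemgn and from 0.0529 to 0.387 for Gata1. The number of these probe sets called thus ran from 0 to 4, and the 4 were Lyl1, Lmo2, Tal1 and Hemgn. For Zfpm1 and Gfi1b it was 0.402 and 0.914 in the fit reported, and for the Cbfa2t3 probe sets 0.488 and 0.743. The lower 3' to 5' ratios of the controls stood in the set with the larger changes, and their part in the difference was not tested.

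**Figure D4:**
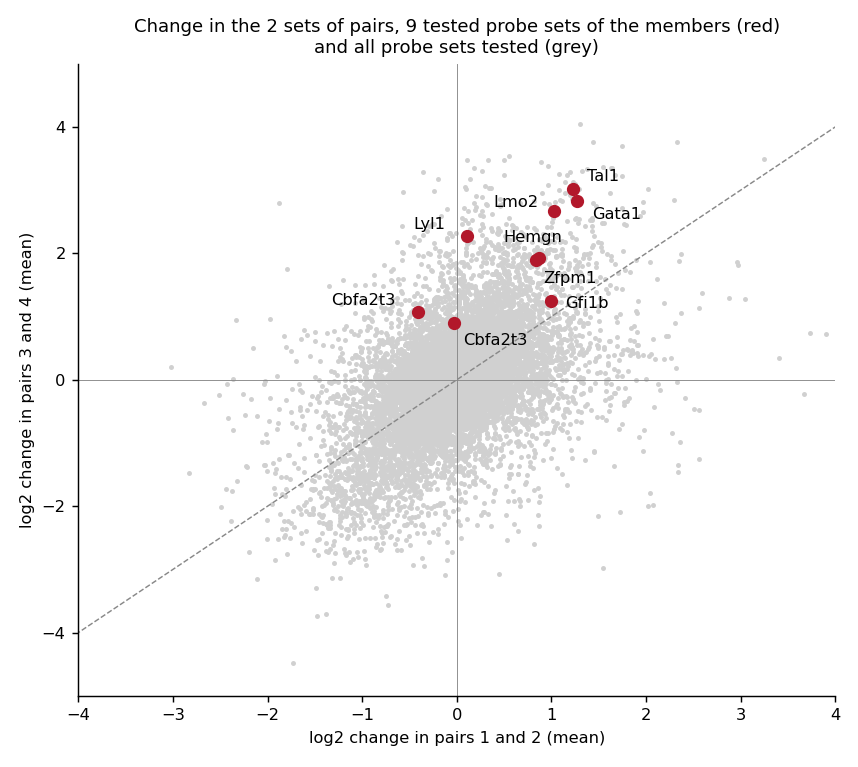
Mean log2 change, erythroid minus epithelial, in pairs 1 and 2 (horizontal) and in pairs 3 and 4 (vertical) for the 9 tested probe sets of the members (red) and all probe sets tested (grey), with a dashed line of equality. All red points lie above the line, Lyl1 at 0.11 and 2.27 and Gfi1b, close to the line, at 0.99 and 1.25.

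Likeness to Gata1 and Tal1 was described by the Pearson correlation of normalised log2 values over the 8 arrays, with no test, since the arrays share 2 cell types and 2 sets of pairs. Gata1 and Tal1 correlated with each other at 0.95, and 19 probe sets of other genes were closer to Gata1. The genes most like Gata1 were Rpia (0.98), an enzyme of the pentose phosphate pathway, Slc4a1 (0.98), which encodes band 3, Rhag (0.98), a part of the Rh complex, Klf1 (0.97), an erythroid zinc finger factor, and Blvrb (0.97), a biliverdin reductase. Those most like Tal1 were Pigq, Abcb10, Ermap, Asns and Epb42, all at 0.98. Of these, ABCB10 is a mitochondrial transporter linked to haem synthesis, ERMAP a red cell surface protein and EPB42 a part of the membrane skeleton. Lmo2 correlated with Tal1 at 0.95 and with Gata1 at 0.87, Hemgn at 0.93 and 0.87, and Gfi1b at 0.74 and 0.73. Lyl1 gave 0.83 and 0.88, Zfpm1 0.76 and 0.87, and the 2 Cbfa2t3 probe sets 0.45 and 0.57, and 0.47 and 0.52. Many probe sets were closer to Gata1 than these: 213 for Lmo2, 208 for Hemgn, 182 for Lyl1, 220 for Zfpm1 and 708 for Gfi1b.

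Genes that the assembly is known to activate were mostly higher in the erythroid captures. Of 38 listed, 31 were tested, 19 were called higher and 0 lower, and the median change was 1.51, with 0.94 in the first set of pairs and 2.03 in the second. Over all genes tested, 433 of 7191 were called higher and 638 lower. Klf1 gave 1271, 1325, 3066 and 4622 in the erythroid captures and 298, 465, 387 and 502 in the epithelial captures, with no overlap and a log2 change of 2.49 ± 0.30 (SE, limma adjusted p = 0.00133). Ermap changed by 2.49 ± 0.40 (SE), Epb42 by 2.46 ± 0.41 (SE) and Slc4a1 by 2.32 ± 0.34 (SE). The list included the embryonic globins Hbb-y and Hbb-bh1, with mean signals of 35218 against 30017 and of 39902 against 36732, which were not called. Their probe sets lay near the top of the arrays' range, and Hbb-bh1 was the brightest probe set of the epithelial array of pair 2, at 37646, so no equality of level is read from them. Klf1, Ermap, Epb42 and Slc4a1 stayed called with each pair left out in turn.

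The partners and corepressors of the assembly had changes centred near 0. Of 37 listed, 32 were tested, 4 were called higher and 0 lower, and the median change was 0.09. Ssbp2, a single-stranded DNA-binding protein that holds LDB1, changed by 1.41 ± 0.28 (SE, limma adjusted p = 0.0089), with 807, 498, 594 and 906 in the erythroid captures and 259.8, 407, 129.9 and 218 in the epithelial captures. Its groups did not overlap. The corepressor Ctbp1 changed by 0.81 ± 0.21 (SE, adjusted p = 0.0308) and was higher in 3 of 4 pairs. Tcf12, an E protein that pairs with TAL1, changed by 0.74 ± 0.18 (SE, adjusted p = 0.0238), and the deacetylase Hdac2 by 0.72 ± 0.20 (SE, adjusted p = 0.0381). With pairs left out in turn, Ssbp2 missed the threshold in 1 of 4 fits, Tcf12 in 2, Ctbp1 in 3 and Hdac2 in all 4. Tcf3, the gene of the E proteins E12 and E47, gave 0.85 with an adjusted p of 0.203.

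Relatives of the 10 genes were mostly dim or did not pass the test. Of 22 listed, 10 were tested, 0 were called higher and 2 lower, and Gata3, Gata5, Gfi1 and Zfpm2 were above background on none of the 8 arrays. Both calls were inhibitors of helix-loop-helix factors, which bind E proteins and keep them from DNA. Id2 gave 3658, 2949, 704 and 1772 in the erythroid captures and 7357, 5392, 5104 and 4523 in the epithelial captures, with no overlap and a log2 change of -1.51 ± 0.29 (SE, limma adjusted p = 0.00713). Id1 changed by -1.20 ± 0.27 (SE, adjusted p = 0.0149). The other tested genes of that family were not called: Id3 gave -0.57 (adjusted p = 0.225) and Id4, in the other direction, 0.28 (0.674). Id2 stayed called with each pair left out, and Id1 missed the threshold in 2 of 4 such fits. Gata2, which GATA1 is known to displace and repress as red cells mature, had mean signals of 180.3 and 179.9 and a change of -0.10 ± 0.36 (SE, adjusted p = 0.88).

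Genes listed as repressed by the assembly in later red cell precursors did not read lower as a group. Of 20 listed, 12 were tested, 4 were called higher and 1 lower, and the median change was 0.64. Myb, a factor of blood progenitors, gave 491, 174, 192 and 262 in the erythroid captures and 130.5, 84.5, 53.5 and 19.3 in the epithelial captures. It was called higher (limma adjusted p = 0.012). Only 1 of the epithelial captures was above background, and it passed the filter on 5 arrays, all 4 erythroid arrays among them, so no fold is given. Mef2c, a factor of megakaryocytes, muscle and other lineages, changed by 2.20 ± 0.49 (SE, limma adjusted p = 0.0147). It gave 707, 480, 535 and 676 in the erythroid captures and 188, 344, 11.8 and 120 in the epithelial captures. The epithelial signal of pair 3 was below the background level of its array (90.5), and the pair differences were 1.70, 0.62, 4.45 and 2.04. The size of the Mef2c change thus rests in part on a signal below background. Myc changed by 1.04 ± 0.29 (SE, adjusted p = 0.038). Rgs18, a regulator of G protein signalling known from platelets, gave 271, 163, 459 and 215 in the erythroid captures and was 1 of the 4 called higher. It was above background on none of the epithelial arrays and passed the filter only through the 4 erythroid arrays, where it is high. No fold or p-value is given for it, and nothing is read from its call. Cebpb, a leucine zipper factor, was the one called lower, at -1.35 ± 0.34 (SE, adjusted p = 0.0237). With pairs left out in turn, Mef2c missed the threshold in 1 of 4 fits and Myb, Rgs18, Myc and Cebpb in 2. Kit and Spi1 were among the 6 not tested. The comparison is between precursors and an epithelium, not between stages of red cells.

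**Figure D5:**
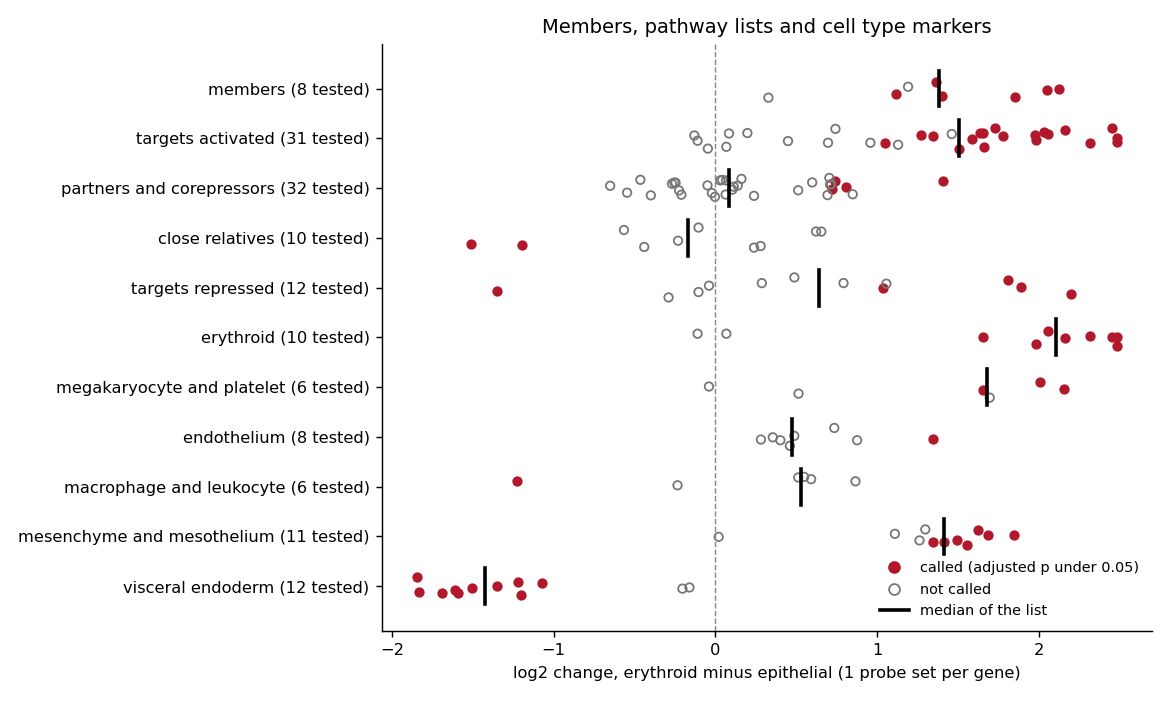
Log2 change, erythroid minus epithelial, of every tested gene of the members, the 4 pathway lists and the 6 marker lists, 1 probe set per gene, with called genes filled and the median of each list as a bar. Member genes have a median of 1.38 and activated targets 1.51, partners and corepressors lie around 0.09, and visceral endoderm markers lie at -1.43. Erythroid markers have a median of 2.11, megakaryocyte and platelet markers 1.68 and mesenchyme and mesothelium markers 1.41, all above that of the members.

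Gata1, Tal1, Lmo2, Gfi1b and Zfpm1 are also used by megakaryocytes, and Tal1, Lmo2 and Lyl1 by endothelium, so markers of other cells are given beside the changes. Of 12 megakaryocyte and platelet markers, 6 were tested and 3 were called higher in the erythroid captures: Pf4 (2.16), Clec1b (2.01) and Rab27b. Rab27b was above background on 1 epithelial array and missed the threshold in 3 of 4 fits with a pair left out, so no change is given. Of the 6, 1 lay below 0, Itga2b (-0.04). The summed signal of the 6 was 5229 to 18636 in the erythroid and 1651 to 2796 in the epithelial captures. Gp9 and Itgb3 were above background on no array. Of 12 endothelial markers, 8 were tested and 1, Tek (1.35), was called higher. Tek missed the threshold in 2 of 4 fits with a pair left out. All 8 lay above 0, with a median of 0.47 and summed signals of 1659 to 2993 against 837 to 1620. Pecam1 and Tie1 were above background on no array. The part of these cells in the changes of the shared genes was not tested.

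Markers of mesenchyme and mesothelium, the supporting and lining cells of the yolk sac wall, also moved with the erythroid captures. Of 12 listed, 11 were tested and 7 were called higher, with a median of 0.34 in the first set of pairs, 2.39 in the second, and summed signals of 30460 to 53678 against 7163 to 27187. Of those called, Acta2 stayed called with each pair left out in turn. Tagln missed the threshold in 1 of 4 such fits, Col1a1, Col3a1, Lum and Pdgfrb in 2 and Upk3b in 3. Of 12 macrophage and leukocyte markers, 6 were tested, 0 were called higher and 1, Fcgr3 (-1.23), was lower, while 4 of the 6 lay above 0 with a median of 0.53 over the list and summed signals of 1543 to 2405 against 1370 to 1638, and Aif1, Cd68 and Itgam were above background on no array. The erythroid markers summed to 77239 to 151786 in the erythroid captures and to 48053 to 91871 in the epithelial captures, ranges that overlap. Hbb-y and Hbb-bh1, at 57.8% or more of the highest signal of each array, made a large part of each sum, so no level is read from it. Slc4a1, Epb42, Ermap, Rhag, Klf1, Trim10 and Hba-x did not overlap between the groups, while Alas2, Hbb-y and Hbb-bh1 did. The epithelial signals of Gata1, Tal1, Lmo2 and Hemgn were above background on all 4 epithelial arrays, and the part of erythroid RNA in them was not tested.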

How the data were processed

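Total RNA from 4 erythroid and 4 epithelial captures was measured on Affymetrix Mouse Genome 430A 2.0 arrays. The authors deposited 1 intensity per probe set and array, a signal on a linear scale with a trimmed mean of 500 on every array. GCOS, MAS5 and affy are named in the submitters' processing notes, with the version of each not given in the sources used. Before log2 an offset of 8.14 was added, which is the 10th percentile of the table, and the 22626 probe sets that are not controls were quantile normalised.

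Tests used limma 3.58.1 in R 4.3.3 (lmFit, then eBayes with the variance trend), fitting pair and cell type, and 3 residual degrees of freedom. P-values were two-sided, adjusted by Benjamini-Hochberg over the 11449 probe sets tested, and called under 0.05. The procedure was tested on simulated data. The interaction fit added a term for cell type within pairs 3 and 4. The pairing comes from the labels' protocols, and deviations of paired samples from their group means correlated at 0.44, 0.34, 0.31 and 0.54. The number of arrays limits the precision.

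Background was read per array as the 95th percentile over 117 probe sets for chemosensory receptors, beta-defensins and keratin-associated proteins. The brightest tested probe set stood for a gene in a list. All 10 members are named with every probe set. From each pathway list the called genes with the 4 largest changes in each direction are named, and for likeness the 5 closest genes. Tcf3, Gata2, Hbb-y, Hbb-bh1, Alas2, Hba-x, the marker genes with values and the genes listed as not tested or at background were named after their values were seen. The members and lists were chosen with earlier results of these data known. Alternatives were other scalings, offsets and filters, no variance trend, no pair term, each pair left out and each set of pairs alone.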

Additional observations from a re-analysis of the deposited data

Results flagged for a closer look

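In the 28 combinations of a probe set and a cell type, 2 samples lay far from the other samples of their group by Dixon's criterion at 95%, which chance meets in about 1 in 20 groups. The Gata1 probe set was low in the epithelial capture of pair 3, with a normalised log2 value of 7.43 against 8.28 to 8.45 in the other epithelial captures, a gap of 0.832 of the whole range and a deposited signal of 153. The Ldb1 probe set was high in the same capture, at 5.84 against 3.62 to 3.83, a gap of 0.901 of the range, with a deposited signal of 41.8 that is below the background level of that array. The change of Lyl1 differed between the sets of pairs by 2.16 on the log2 scale in the test of the interaction.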

How the results depend on the processing

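Gata1 stayed higher and past the threshold under every alternative run. Without the replicate block (the pair term), 160 probe sets were called higher and 285 lower, and 4 of those of the 10 genes were called higher, without Zfpm1 (adjusted p = 0.139) and Gfi1b (0.0796). Without the variance trend the counts were 179 and 339, 2 for the 10 genes and 0 for the interaction in limma; Tal1 (0.0594), Lmo2 (0.0513), Hemgn (0.0596) and Gfi1b (0.0523) then missed the threshold. With arrays centred on the median, 455 were called higher, the interaction was called for 412 in place of 211, and the median of all probe sets moved from 0.02 to -0.11. Leaving out 1 pair gave 202 to 690 called higher and 332 to 829 lower, the lowest without pair 4, and 4 to 6 for the 10 genes. Pairs 1 and 2 alone gave 475 higher and 543 lower, with 4 for the 10 genes, and pairs 3 and 4 alone 1402 and 1457, with 7, Lyl1 among them; each of these fits has 1 residual degree of freedom. The Cbfa2t3 change ran from -0.0046 without pair 4 to 0.77 without pair 2 and was -0.41 in pairs 1 and 2 alone. The causes of these shifts were not tested. Signals near background limit what can be said of Ldb1, Nfe2, Gfi1b in the epithelial captures and the dimmer Cbfa2t3 and Zfpm1 probe sets. The tested Cbfa2t3 probe sets were above background on some arrays only, which limits that gene too.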

Other observations

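Among the activated targets, the signal of Alas2, the first enzyme of haem synthesis in red cells, was 371 and 458 in the erythroid captures of pairs 1 and 2 and 5500.5 and 3780.5 in those of pairs 3 and 4. Its epithelial signals were 217, 385, 289 and 674, and its log2 change was 1.98 ± 0.52 (SE, limma adjusted p = 0.0301). That change fell to 1.24 (adjusted p = 0.107) without pair 3, and the adjusted p was 0.152 without pair 4, 0.194 without the pair term and 0.126 without the variance trend. The embryonic globin Hba-x, whose signals lay between 7.34% and 58.5% of the highest signal of their arrays, changed by 1.66 ± 0.16 (SE, limma adjusted p = 0.00102), with mean signals of 16702 ± 4930.3 (SD, n = 4) and 5086 ± 1295 (SD, n = 4), and was higher in 4 of 4 pairs. These genes were picked after their values were seen.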
